A study of Bos taurus with 12 samples.

Results

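The prostaglandin synthesis genes were followed in cattle embryos at Day 7 and Day 13, before and during the time in which the bovine conceptus grows from a sphere into a filament. The members are the 9 genes PTGS1, PTGS2, PTGES, PTGES2, PTGES3, AKR1B1, PTGIS, PTGDS and HPGD, chosen by name, and every probe set whose single gene symbol was one of these names was used. Probe sets were found for 8 of the 9 listed, 12 probe sets in all, out of 24016 probe sets and 9155 named genes on the array. PTGES2 is named only. Where a gene had several probe sets, the brightest over the 12 arrays stood for the gene.

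RNA had been measured on Affymetrix bovine arrays in 4 groups of 3 pools. The Day 13 in vitro and Day 13 in vivo groups were conceptuses that had grown in recipient heifers after transfer, 10 blastocysts to a recipient, of blastocysts made by in vitro fertilization or by superovulation. The Day 7 in vitro and Day 7 in vivo groups were blastocysts of the same 2 origins, taken before transfer. A Day 13 pool held 5 conceptuses and a Day 7 pool held 25 blastocysts, each array was made from 75 ng of total RNA, and all embryos of both origins were cattle with no treatment or allele in the labels. Both Day 13 groups had thus been in a uterus, whatever their origin, and each value is the average of whole embryos, with all their cell types, in a pool. The titles call the 3 arrays of a group biological replicates, but do not say whether the pools came from separate donors, recipients or collections, so p-values measure the spread between pools only.

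Prostaglandins are lipid signals made from arachidonic acid. The cyclooxygenases PTGS1 and PTGS2 make the common precursor, prostaglandin H, and terminal enzymes turn it into prostaglandin E (PTGES, PTGES2, PTGES3), prostaglandin F (AKR1B1, in bovine endometrium), prostacyclin (PTGIS) or prostaglandin D (PTGDS). HPGD begins their inactivation. Ruminant conceptuses release prostaglandins into the uterine lumen, and in sheep, blocking PTGS2 in the uterus hindered elongation.

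Between blastocyst and conceptus, the mRNA of 3 terminal enzymes rose in embryos of one origin, and for none of them did the day effect pass the test of a difference between origins. AKR1B1 and PTGIS rose between Day 7 and Day 13 in embryos made in vivo, by 3.94 ± 0.86 and 2.74 ± 0.58 (log2 difference ± SE, adjusted p = 0.0452 and 0.0404, limma). These calls were lost in 18 and 15 of 24 fits with another setting or with arrays left out. In embryos made in vitro AKR1B1 differed by 2.20 ± 0.86, without overlap of the groups, which did not pass. PTGES3 rose in embryos made in vitro, by 1.73 ± 0.28 (adjusted p = 0.00799). With the poly-A spike-in signal as a covariate that difference was 0.80 and did not pass (adjusted p = 0.187). PTGS2 was well above background in every group and passed in no comparison, and PTGS1, PTGDS and PTGES lay at or near background throughout. HPGD was above background on 3 arrays, all of Day 13. No member passed the test between origins on either day.

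Values are log2 intensities as deposited, and a difference of 1 is a doubling. Differences, SE and 95% intervals are those of a limma fit to all 12 arrays, and a gene was called when its Benjamini-Hochberg adjusted p over all 24016 probe sets was below 0.05. Background was set at 3.39 from control probe sets with no target in the sample. The arrays differed in their spike-in controls. The poly-A spike-in mean was 9.27 to 12.99 on Day 13 in vitro arrays, against 13.34 to 14.96 on the other 9, with replicates 1 and 2 lowest at 9.27 and 10.5. The hybridization control mean was 10.38 to 11.96 on Day 13 in vitro arrays, against 11.84 to 13.29 on the other 9. The step at which these arrays came to differ was not tested. The 3' minus 5' difference of GAPDH was 5.58 to 5.65 in Day 7 in vivo arrays and 2.53 to 4.62 in the other groups. Of the 13 trophoblast markers measured, 13 were above background on at least 1 array of each Day 13 group, though ELF5 (3.06) and PAG11 (3.39) were not above it on 1 Day 13 in vivo array each, and 9 were so in each Day 7 group. Their summed linear level was 62080 to 98630 in Day 13 in vitro, 58720 to 69420 in Day 13 in vivo, 22950 to 36170 in Day 7 in vitro and 17080 to 33010 in Day 7 in vivo arrays, so it moved with the day effects given here, and its part in them was not tested. Not every trophoblast marker moved as the sum did. In vivo, PAG2 read 4.34 to 7.51 at Day 13, against 7.74 to 8.46 at Day 7, and IFNT2 read 8.41 to 9.98, against 9.24 to 11.4. Of the endometrial markers at Day 13, the sugar transporter gene SLC2A5 was above background on all 6 arrays, MUC1 was so on 1 array (3.71), and the defining genes SERPINA14, PAEP, ESR1 and PGR were at background on every array.

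In embryos made in vivo, 2 of the 8 measured members rose and 0 fell between Day 7 and Day 13, where 5.49% of all named genes were called, 2.70% higher and 2.80% lower. In embryos made in vitro, 1 of 8 rose and 0 fell, where 10.8% of all genes were called, 5.00% higher and 5.77% lower, so this count is near that of genes in general. Between origins 0 of 8 passed in limma at Day 13 (1.64% of genes called; 3 members at an unadjusted p below 0.05) and 0 of 8 at Day 7 (0.295% called; 1 member at an unadjusted p below 0.05). For the difference of the day effect between origins, 0 of 8 passed in limma (0.513% called; 2 members at an unadjusted p below 0.05). The median log2 difference over the 8 members was 0.30 for the day effect in vivo, 0.79 for that in vitro, -0.15 between origins at Day 13 and -0.12 at Day 7, and that over all 9155 genes was 0.00 in each. The 9155 genes include those at the floor on all arrays, whose difference is 0, so their median is a weak yardstick for the members.

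**Figure D1:**
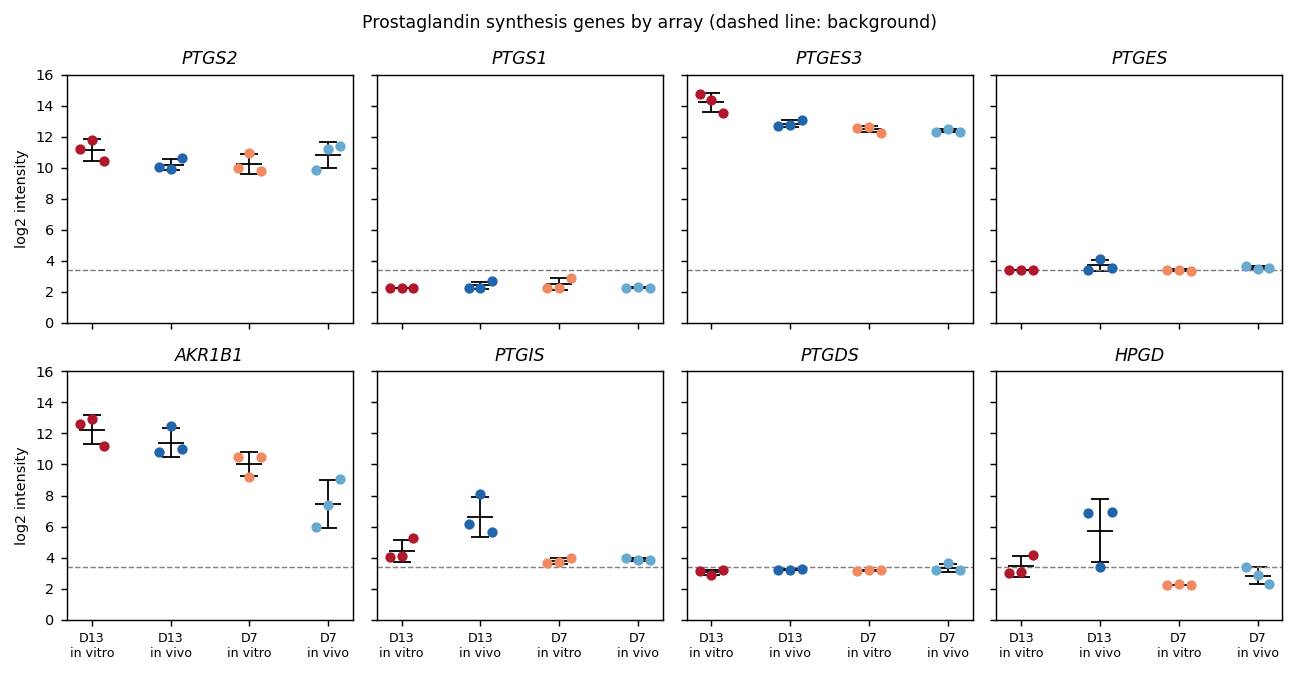
Log2 intensity (vertical axis) of the brightest probe set of each of the 8 measured genes on each of the 12 arrays, by group (horizontal axis). Points are pools, bars are the mean ± SD of 3 pools and the dashed line is the background of 3.39. AKR1B1 was lowest in the Day 7 in vivo group, PTGES3 highest in the Day 13 in vitro group and PTGIS highest in the Day 13 in vivo group, while PTGS1 and PTGDS stayed below or near background.

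PTGS2, the inducible cyclooxygenase, was present from the blastocyst on. Its brightest probe set read 11.2, 11.8 and 10.4 in Day 13 in vitro conceptuses and 10.06, 9.91 and 10.6 in Day 13 in vivo conceptuses. It read 9.95, 10.96 and 9.77 in Day 7 in vitro blastocysts and 9.86, 11.19 and 11.36 in Day 7 in vivo blastocysts. All 4 groups overlapped. The order of group means was Day 13 in vitro (11.1 ± 0.69, SD, n = 3), Day 7 in vivo (10.8 ± 0.82), Day 7 in vitro (10.2 ± 0.64) and Day 13 in vivo (10.2 ± 0.38), and no neighbours in it differed beyond their spread. The day effect was -0.61 (95% interval -1.80 to 0.58) in vivo and 0.91 (-0.28 to 2.10) in vitro, with adjusted p of 0.647 and 0.448 (limma). As folds, the intervals run from 0.826 to 4.30 in vitro, and in vivo down to 0.287, so changes of such sizes could not be told from none with 3 pools a group.

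A second probe set of PTGS2 gave a more scattered reading. It lay at 6.40, 6.08 and 7.33 in Day 13 in vitro arrays and at 3.23, 5.07 and 8.57 in Day 13 in vivo arrays, against 7.00, 8.23 and 6.79 in Day 7 in vitro and 7.12, 8.73 and 8.57 in Day 7 in vivo arrays. On it the day effect in vivo was -2.52 ± 1.21 (adjusted p = 0.43), and -3.99 (adjusted p = 0.0386) without Day 13 in vivo replicate 3, the array at 8.57. In embryos made in vitro the probe sets differed in sign, 0.91 ± 0.52 on the brightest and -0.74 ± 1.21 on the second. The third read 2.23, the floor, on all arrays. PTGS1, the constitutive cyclooxygenase, did not exceed background on any array, with a highest value of 2.92 over both of its probe sets.

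PTGS2 is also a gene of cumulus cells, which surround the oocyte. Of 11 cumulus and granulosa markers measured, HAS2, TNFAIP6 and VCAN were above background on at least 3 arrays, and 7, PTX3, FSHR, AMH and INHA among them, were at background on all arrays. The summed level of the list ran from 212 to 264 in Day 13 in vitro, 270 to 431 in Day 13 in vivo, 238 to 298 in Day 7 in vitro and 383 to 465 in Day 7 in vivo arrays, on the linear scale. The part of such cells in the PTGS2 readings was not tested.

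PTGES3, known as p23, is a co-chaperone of HSP90 that also acts as a cytosolic prostaglandin E synthase. It read 14.7, 14.4 and 13.5 in Day 13 in vitro conceptuses, against 12.6, 12.6 and 12.3 in Day 7 in vitro blastocysts. The groups did not overlap, and PTGES3 rose by 1.73 ± 0.28 (95% interval 1.10 to 2.37, adjusted p = 0.00799, limma). Among in vivo embryos it read 12.7, 12.7 and 13.1 at Day 13, against 12.3, 12.5 and 12.3 at Day 7. These groups did not overlap either, but the difference of 0.46 ± 0.28 (-0.18 to 1.09) did not pass (adjusted p = 0.568).

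The Day 13 in vitro arrays of PTGES3 also lay above all Day 13 in vivo arrays. The difference was 1.37 ± 0.28 (0.73 to 1.998), with an adjusted p of 0.0608. Without Day 13 in vitro replicate 3, which at 13.5 was the lowest of its group, it was 1.71 with an adjusted p of 0.000961, and the day effect differed between origins by 1.62 (adjusted p = 0.00827) in place of 1.28 ± 0.39 (adjusted p = 0.287). That omission left replicates 1 and 2, the arrays with the least spike-in signal. With replicates 1 and 2 left out instead, the Day 13 difference was 0.68. The day effect then differed between origins by 0.59, both on a single Day 13 in vitro array. With the spike-in covariate the Day 13 difference was 0.30 (adjusted p = 1). The order of group means was Day 13 in vitro (14.2 ± 0.62), Day 13 in vivo (12.8 ± 0.22), Day 7 in vitro (12.5 ± 0.20) and Day 7 in vivo (12.4 ± 0.10), and the 2 Day 7 groups overlapped.

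The PTGES3 arrays with the highest readings were also those with the least poly-A spike-in signal. When that signal entered the model as a covariate, the day effect in vitro was 0.80 (adjusted p = 0.187), and with Day 13 in vitro replicates 1 and 2 left out together it was 1.05 (adjusted p = 0.0469), on a single Day 13 in vitro array assumed to vary like the other groups. The part of this difference between arrays in the PTGES3 result was not tested. The call was kept when any one array was left out (adjusted p = 0.000239 to 0.0359) and lost when only the 6 arrays compared were fitted (adjusted p = 0.109).

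PTGES, the inducible membrane-bound prostaglandin E synthase, read 3.39 to 3.42 in Day 13 in vitro, 3.42 to 4.12 in Day 13 in vivo, 3.33 to 3.42 in Day 7 in vitro and 3.47 to 3.67 in Day 7 in vivo arrays. The highest array was Day 13 in vivo replicate 2, and no comparison passed (adjusted p = 0.418 to 1). PTGDS, the lipocalin-type prostaglandin D synthase, was above background on 1 array, Day 7 in vivo replicate 2 at 3.63, and passed in no comparison (adjusted p = 0.571 to 1).

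AKR1B1, an aldose reductase that makes prostaglandin F in bovine endometrium, showed the widest span of any member. It read 10.8, 12.5 and 10.99 in Day 13 in vivo conceptuses, against 5.99, 7.36 and 9.08 in Day 7 in vivo blastocysts. The groups did not overlap, and AKR1B1 rose by 3.94 ± 0.86 in these embryos (95% interval 1.96 to 5.92, adjusted p = 0.0452, limma), or 15.3-fold (3.90 to 60.3). In bulk RNA, more of a cell type and more RNA per cell cannot be told apart.

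Among in vitro embryos AKR1B1 read 12.6, 12.9 and 11.2 at Day 13, against 10.5, 9.16 and 10.5 at Day 7. Here too the groups did not overlap, but the difference of 2.20 ± 0.86 (0.23 to 4.18) did not pass (adjusted p = 0.198). At Day 7 the in vitro arrays lay above the in vivo arrays, with 9.16 as the lowest in vitro reading and 9.08 as the highest in vivo reading, and the difference of 2.57 ± 0.86 (0.59 to 4.54) did not pass (adjusted p = 0.606). At Day 13 the origins overlapped (0.83 ± 0.86, adjusted p = 0.781). The order of group means was Day 13 in vitro (12.2 ± 0.92), Day 13 in vivo (11.4 ± 0.93), Day 7 in vitro (10.04 ± 0.76) and Day 7 in vivo (7.48 ± 1.55), and of the neighbours the Day 13 groups overlapped.

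The call of AKR1B1 in vivo lay close to the threshold. It was kept without Day 13 in vitro replicate 3 or Day 7 in vivo replicate 3 and lost without any other of the 12 arrays (adjusted p = 0.0604 to 0.124, differences of 3.20 to 4.26). The difference was 3.20, or 9.17-fold, without Day 7 in vivo replicate 1 and 4.74, or 26.7-fold, without Day 7 in vivo replicate 3. The GAPDH 3' minus 5' difference moved with the groups compared, and with it as a covariate the difference was 2.32 (adjusted p = 0.374). Its part in the result was not tested.

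PTGIS makes prostacyclin, a ligand of the receptor PTGIR and a proposed ligand of the nuclear receptor PPARD. It read 6.16, 8.07 and 5.66 in Day 13 in vivo conceptuses, against 4.002, 3.83 and 3.83 in Day 7 in vivo blastocysts. The groups did not overlap, and PTGIS rose by 2.74 ± 0.58 (95% interval 1.40 to 4.08, adjusted p = 0.0404, limma), or 6.68-fold (2.64 to 16.9). Among in vitro embryos it read 4.02, 4.07 and 5.26 at Day 13, against 3.68, 3.69 and 3.99 at Day 7, a difference of 0.66 ± 0.58 (-0.68 to 2.001) that did not pass (adjusted p = 0.734).

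Every Day 13 in vitro reading of PTGIS lay below every Day 13 in vivo reading. The difference was -2.18 ± 0.58 (-3.52 to -0.84), with an adjusted p of 0.123, and the day effect differed between origins by -2.08 ± 0.83 (adjusted p = 0.436). Without Day 13 in vitro replicate 3, the highest of its group, the Day 13 difference was -2.58 (adjusted p = 0.0436), and with the spike-in covariate it was -0.98 (adjusted p = 1). With Day 13 in vitro replicates 1 and 2 left out, those with the least spike-in signal, it was -1.37, on a single array of that group. The order of group means was Day 13 in vivo (6.63 ± 1.27), Day 13 in vitro (4.45 ± 0.70), Day 7 in vivo (3.89 ± 0.098) and Day 7 in vitro (3.79 ± 0.18), with the 2 Day 7 groups overlapping.

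The call of PTGIS in vivo was kept in the absence of replicate 3 of either Day 13 group or replicate 2 of the Day 13 in vivo group, and lost without any other of the 12 arrays (adjusted p = 0.0617 to 0.114). Without Day 13 in vivo replicate 2, the array at 8.07, the difference was 2.02, or 4.06-fold (adjusted p = 0.0276). With the GAPDH covariate the difference was 2.24 (adjusted p = 0.299), and the part of that measure was not tested.

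Some markers of the hypoblast, the layer that lines the yolk sac, were ordered like PTGIS at Day 13 and others were not. Of the 10 measured, 6 were above background in Day 13 in vitro and 7 in Day 13 in vivo arrays, with a summed linear level of 10520 to 20510 in Day 13 in vitro, 24450 to 47840 in Day 13 in vivo, 23840 to 30250 in Day 7 in vitro and 27410 to 40020 in Day 7 in vivo arrays. HNF4A, TTR and AFP were at background on all arrays. APOA2 read 2.27, 2.68 and 4.76 in Day 13 in vitro arrays and 7.63, 10.2 and 6.82 in Day 13 in vivo arrays, highest in replicate 2 as PTGIS was. APOE (9.55 to 11.7 in Day 13 in vivo, against 7.92 to 8.98 in Day 13 in vitro arrays) was ordered likewise. So were APOA1 (12.3 to 14.6, against 10.7 to 11.9) and COL4A1 (10.7 to 11.8, against 8.12 to 9.35), and all of these were highest in Day 13 in vivo replicate 2. The hypoblast factor GATA6 read 11.6, 11.8 and 11.8 in Day 13 in vitro and 12.6, 11.3 and 12.8 in Day 13 in vivo arrays, lowest in that replicate, and was at 13.1 to 14.1 in Day 7 in vivo arrays, where PTGIS was low. FN1 too was lower in Day 13 in vivo (13.3 to 13.7) than in Day 7 in vivo arrays (13.97 to 14.4), though within Day 13 in vivo it was highest in replicate 2. Between origins at Day 13 it overlapped (12.3 to 13.6 in Day 13 in vitro arrays). The part of hypoblast content in the PTGIS result was not tested.

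HPGD, 15-hydroxyprostaglandin dehydrogenase, starts the breakdown of prostaglandins E and F. Its brightest probe set read 6.85, 3.39 and 6.96 in Day 13 in vivo conceptuses, against 3.38, 2.87 and 2.27 in Day 7 in vivo blastocysts, all 3 of which were at background. Replicates 1 and 3 of Day 13 in vivo stood far above replicate 2, which was at background while it held the highest PTGIS and AKR1B1 readings of the group. The Day 13 mean was at least 5.08-fold higher, taking Day 7 at background. The fitted difference of 2.90 ± 0.88 did not pass (adjusted p = 0.15, limma). Nor did it in 20 of 24 alternatives, the spike-in covariate (adjusted p = 0.1745) and the replicate block (0.209) among them. It passed with dim probe sets left out of the adjustment (adjusted p = 0.0367), with array weights (0.0489), with the GAPDH covariate (0.0156) and without Day 13 in vivo replicate 2.

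Among in vitro embryos HPGD read 3.03, 3.08 and 4.19 at Day 13, above background on 1 array, against 2.23, 2.27 and 2.23 at Day 7. Neither the day effect in vitro (1.19 ± 0.88, adjusted p = 0.606) nor the difference between origins at Day 13 (-2.30 ± 0.88, adjusted p = 0.242) passed. Without Day 13 in vivo replicate 2 the day effect in vivo was 4.07 (adjusted p = 0.00201) and the difference between origins -3.47 (adjusted p = 0.00803), on the 2 remaining arrays of that group. The difference between origins did not pass in 21 of 24 alternatives, and was -1.42 with the spike-in covariate and -1.125 with the GAPDH covariate. The GAPDH 3' minus 5' difference of Day 13 in vivo replicate 2 was 2.85, against 4.62 and 4.57 in replicates 1 and 3. A second HPGD probe set read 2.23, the floor, on all arrays.

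**Figure D2:**
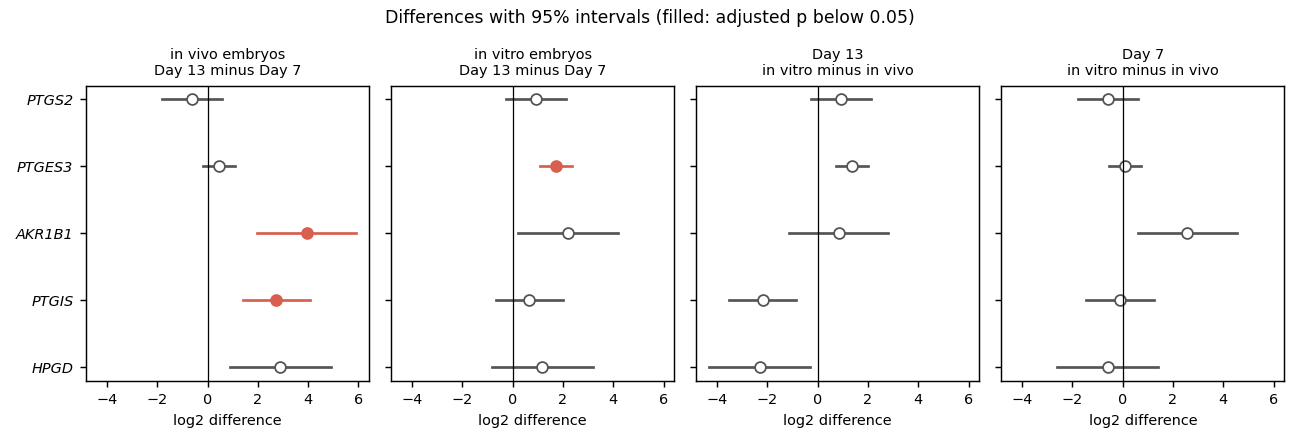
Log2 differences (horizontal axis) with 95% intervals for 5 members in 4 comparisons, from the fit to all 12 arrays. These are the members with the highest single readings, though HPGD was above background on 3 arrays only. Filled symbols passed at an adjusted p below 0.05: AKR1B1 and PTGIS between days in vivo, and PTGES3 between days in vitro. At Day 13, PTGES3 was positive and PTGIS and HPGD negative for in vitro minus in vivo, none of them past the threshold.

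Of 86 other symbols of the pathway, older names included, 55 had a probe set and 28 of these were above background on at least 3 arrays. The phospholipase gene PLA2G4A, ABCC4, CBR1 and the receptor gene PTGIR had no probe set with that symbol alone, so nothing can be said of them. Between days in vivo 4 of 55 rose and 0 fell, and between days in vitro 3 rose and 2 fell, or 7.27% and 9.09%, near the 5.49% and 10.8% of all genes. Between origins 1 was lower at Day 13, or 1.82%, near the 1.64% of all genes. At Day 7 0 passed in limma, where 0.295% of all genes did.

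For the supply of arachidonic acid, 12 of 25 symbols were measured. PLA2G12A, a secreted phospholipase A2 that frees fatty acids from membranes, rose in vitro by 2.89 ± 0.64 (adjusted p = 0.0306), with 6.23, 7.01 and 5.53 at Day 13, against 3.20, 3.79 and 3.11 at Day 7. Of these Day 7 readings 1 was above background, so the size of the PLA2G12A rise rests on readings near background. ACSL1, which links long-chain fatty acids to coenzyme A, fell by 3.85 on the log2 scale in vitro (SE 0.72, adjusted p = 0.0157), with 4.72, 5.68 and 8.13 at Day 13, against 10.05, 10.3 and 9.71 at Day 7. Its lowest readings were those of the 2 arrays with the least spike-in signal, and without both it was -1.89 (adjusted p = 0.0155), whereas with the spike-in covariate it was -1.54 and did not pass (adjusted p = 0.629). Dropping Day 13 in vitro replicate 1 gave -3.12 and dropping replicate 3 gave -4.83. ACSL1 no longer passed once Day 13 in vitro replicate 2 (adjusted p = 0.0645) or Day 7 in vitro replicate 1 (0.0598) was dropped. PLA2G12A no longer passed on dropping Day 13 in vitro replicate 1 or 2, Day 13 in vivo replicate 1 or any Day 7 in vitro array (adjusted p up to 0.113, limma), and its second probe set gave 1.16 ± 0.32 (adjusted p = 0.0678). FABP5, a fatty acid carrier, rose in vivo by 2.07 ± 0.34 (adjusted p = 0.0138), and by 4.56 ± 0.49 on its second probe set (adjusted p = 0.00172). The brightest probe set no longer passed once Day 7 in vivo replicate 1 was dropped (adjusted p = 0.0502), with array weights (0.0544) or with the GAPDH covariate (0.124).

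Among the other terminal enzymes, 9 of 16 symbols were measured. PRXL2B, a prostamide and prostaglandin F synthase, fell by 2.56 on the log2 scale in vitro (SE 0.40, adjusted p = 0.00716), with 7.48, 8.05 and 7.38 at Day 13, against 10.4, 9.64 and 10.5 at Day 7. AKR1B1, the other prostaglandin F enzyme here, differed by 2.20 in these embryos, which did not pass. PRXL2A, a relative of PRXL2B, rose in vitro by 1.35 ± 0.32 (adjusted p = 0.0404), a call lost without Day 13 in vitro replicate 1 or 2, Day 13 in vivo replicate 3, Day 7 in vitro replicate 1 or 3 or any Day 7 in vivo array (adjusted p up to 0.146). GSTM3, a mu class glutathione transferase, read 4.23, 5.82 and 5.03 in Day 13 in vivo conceptuses and was at background on the other 9 arrays. It was at least 3.12-fold higher at Day 13 than at Day 7 in vivo (adjusted p = 0.00228), and at least 3.12-fold lower in Day 13 in vitro than in Day 13 in vivo (adjusted p = 0.0062). The call between origins was lost with values floored at background (adjusted p = 0.0641), with the spike-in covariate (0.176) and without Day 13 in vitro replicates 1 and 2 (0.0644). TBXAS1, thromboxane synthase, was at background on all arrays.

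Downstream of HPGD, the reductases PTGR1 and PTGR2 complete the inactivation, and both are named here after their values were seen. PTGR1 read 12.3, 13.6 and 11.99 in Day 13 in vivo, against 8.79, 10.6 and 11.5 in Day 7 in vivo arrays, and its difference of 2.31 ± 0.66 did not pass (adjusted p = 0.122). PTGR2 differed by 1.74 ± 0.85 in vivo (adjusted p = 0.44) and by 1.92 ± 0.85 for in vitro minus in vivo at Day 13 (adjusted p = 0.317). Its second probe set, above background on all 12 arrays, gave 0.325 ± 0.664 in vivo, with overlapping groups. Between origins at Day 13 it gave 2.14 ± 0.66 (adjusted p = 0.173). Day 7 in vivo replicate 1 gave the lowest reading of all 12 arrays for AKR1B1 (5.99), PTGR1 (8.79) and PTGR2 (4.92).

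The membrane receptors were not detectable above background. For the 5 of 10 with a probe set, PTGER2, PTGER3, PTGER4, PTGFR and PTGDR2, the highest reading on any array was 2.39, below background. The carrier SLCO2A1 exceeded background on 1 array, Day 13 in vivo replicate 3, at 3.42. Of the nuclear receptors, PPARA and PPARG were at background on all arrays, whereas PPARD read 3.80 to 5.31 in Day 13 in vitro, 5.40 to 6.01 in Day 13 in vivo, 5.42 to 6.28 in Day 7 in vitro and 5.14 to 5.58 in Day 7 in vivo arrays. RXRA, the partner of the PPAR proteins on DNA, rose in vitro by 1.60 ± 0.29 (adjusted p = 0.0135), with 5.54, 4.90 and 4.55 at Day 13, against 3.73, 2.79 and 3.68 at Day 7. Of these Day 7 readings 2 were above background, and only just, so the size of the RXRA rise rests on readings near background. With Day 13 in vitro replicates 1 and 2 left out together, the calls in vitro of PLA2G12A (adjusted p = 0.48), PRXL2A (0.485), PRXL2B (0.0685) and RXRA (0.193) were lost. With the spike-in covariate all 5 calls in vitro were lost, at an adjusted p of 0.729 for PLA2G12A, 1 for PRXL2A (difference 0.75), 0.214 for PRXL2B, 0.508 for RXRA and 0.629 for ACSL1.

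LTA4H, which makes leukotriene B from the competing lipoxygenase route, rose in vivo by 2.43 ± 0.29 (adjusted p = 0.00263), with 8.08, 8.36 and 8.54 at Day 13, against 6.06, 6.43 and 5.18 at Day 7. The other 6 lipoxygenase genes measured did not pass. Of the 7 partners listed for PTGES3, the HSP90 genes HSP90AA1 and HSP90AB1 among them, FKBP4 alone rose in vivo, by 2.0 ± 0.44 (adjusted p = 0.0459). None passed in vitro, where PTGES3 itself rose. The FKBP4 call was kept without replicate 3 of the Day 13 or the Day 7 in vivo group and lost without any other of the 12 arrays (adjusted p up to 0.149) and with the GAPDH covariate (0.322). With only the 6 arrays compared in the fit, PRXL2B alone of these pathway genes kept its call on the brightest probe set, and LTA4H (adjusted p = 0.107), FABP5 (0.149), GSTM3 (0.109 between days, 0.255 between origins), FKBP4 (0.28), RXRA (0.155), ACSL1 (0.163), PLA2G12A (0.0624) and PRXL2A (0.155) did not pass.

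**Figure D3:**
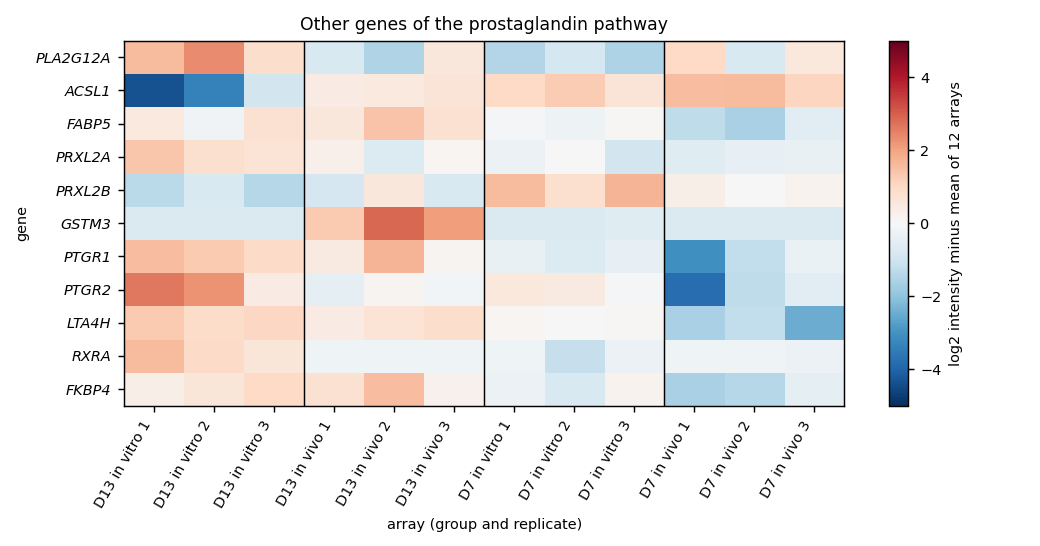
Log2 intensity minus the mean of the 12 arrays (colour) for 11 other genes of the pathway (rows) on each array (columns, by group and replicate). GSTM3 stood out in the 3 Day 13 in vivo arrays, ACSL1 was lowest and PLA2G12A highest in Day 13 in vitro replicates 1 and 2, and PRXL2B was highest in the Day 7 in vitro arrays.

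The named genes whose readings over the 12 arrays were most like those of each called member, among 5700 genes above background, were found by Pearson correlation as a description. The same stages, origins and spike-in differences run through all genes, so the values carry no p. PTGES3 was most like TM9SF3 (r = 0.99), SAR1B (0.982) and TMEM50B (0.979). All 3 were, like PTGES3, highest in Day 13 in vitro replicates 1 and 2. AKR1B1 was most like ELOF1 (r = 0.976), the glycolytic gene ENO1 (0.973) and the protein repair gene PCMT1 (0.973). These were lowest in Day 7 in vivo replicate 1. PTGIS was most like the apolipoprotein gene APOA2 (r = 0.986), the signalling gene WNT11 (0.984) and the collagen prolyl hydroxylase gene P3H1 (0.962), and each of these was highest in Day 13 in vivo replicate 2.

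**Figure D4:**
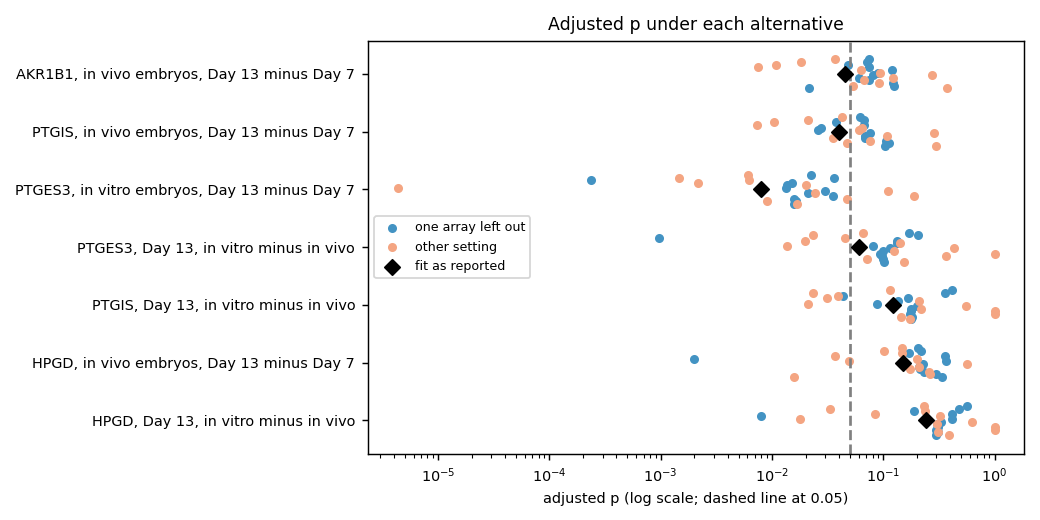
Adjusted p (horizontal axis, log scale) of 7 member differences under each alternative. Diamonds are the fit as reported, blue points leave out one array, orange points are other settings and the dashed line is at 0.05. The AKR1B1 and PTGIS calls in vivo straddle the line, and PTGES3 in vitro lies below it in all but 2 settings.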

How the data were processed

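The authors deposited 1 table of normalized log2 values. The submitters' processing notes name RMA, GCRMA and limma; whether RMA or GCRMA produced these values, and the versions, are not given in the sources used here. All 12 columns were used. Of 24128 probe sets, 112 controls were left out of the tests. Symbols came from GEO's platform annotation: 13292 probe sets had 1 symbol, 86 several and 10638 none. Background (3.39) is the 99th percentile over all arrays of the 48 control probe sets without a spiked target.

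A linear model of 4 group means was fitted to the deposited values with limma 3.58.1 in R 4.3.3 (8 residual and 0.379 prior degrees of freedom), two-sided, and was tested on simulated data. "At least" folds set dim arrays to background, with the adjusted p of the fit to the deposited values. With arrays, precision is set by how many pools there are. The members and lists, and the genes named from them (called ones and a fixed set; PTGR1 and PTGR2 after their values were seen), were chosen with earlier results of these data known. Alternatives were 3 scalings, a filter, moderated and weighted variances, subsets of arrays, covariates and a replicate block. The labels give no batch.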

Additional observations from a re-analysis of the deposited data

Results flagged for a closer look

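The day effect of GSTM3 differed between origins, by -2.83 on the log2 scale for in vitro minus in vivo (SE 0.45, adjusted p = 0.0488, limma interaction term), since GSTM3 was above background in the Day 13 in vivo group alone, on all 3 of its arrays. With values below background set to background the difference was -1.64 and did not pass (adjusted p = 0.261). The call was lost in 9 of the 12 fits with one array left out, those without Day 13 in vitro replicate 1 or 2, Day 13 in vivo replicate 3 or any Day 7 array (adjusted p up to 0.124).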

How the results depend on the processing

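The number of members called was recomputed under each alternative. For the day effect in vivo (2 as reported) it was 3 with dim probe sets left out (HPGD added), 1 with array weights and with the GAPDH covariate (HPGD in both), 1 with the poly-A spike-in covariate and with values floored at background (PTGIS in both), and 0 with a trended robust variance, with only the arrays compared, with the replicate block and without Day 13 in vitro replicates 1 and 2; it ran from 0 to 2 when one array was left out. For the day effect in vitro (1 as reported) it was 5 with array weights (AKR1B1, HPGD, PTGDS, PTGES3 and PTGS2), and 0 with only the arrays compared and with the spike-in covariate. Between origins at Day 13 (0 as reported) it was 5 with median centring, 2 with ribosomal protein centring, 2 when dim probe sets were left out of the adjustment (PTGES3 and PTGIS in both), 3 with array weights and 0 to 2 with one array left out. For the difference of the day effect it was 0 to 1 with one array left out. No alternative called a member between origins at Day 7. With median centring, which moves all probe sets by -0.25 at Day 13, PTGES and PTGDS, at or near background, were among the 5; the shift is added to their nearly flat values. Median centring also moves all probe sets by 0.11 for the day effect in vivo and -0.18 between origins at Day 7. Ribosomal centring moves them by -0.33 for the day effect in vivo, -0.30 between origins at Day 7 and 0.35 for the difference of the day effect.

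Same-numbered arrays of different groups, after removal of group means, correlated above 0.1 in 3 of 18 pairs (median r = -0.064), so the numbers were not taken to pair the arrays. With the replicate number as a block, the differences in vivo of AKR1B1 and PTGIS were as reported (3.94 and 2.74) with adjusted p of 0.122 and 0.108, and PTGES3 in vitro kept its call (1.73, adjusted p = 0.0241). The calls of FKBP4 in vivo, PRXL2A and PLA2G12A in vitro, and GSTM3 on the difference of the day effect, were lost under it (adjusted p = 0.104, 0.0823, 0.0832 and 0.121), and that of every other gene named as called was kept.

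Signs turned in differences that passed neither way. With the spike-in covariate these were AKR1B1 between origins at Day 13 (-0.084), PTGES3 (-0.093) and PTGIS (0.10) between origins at Day 7, and PTGS2 for the day effect in vitro (-0.22) and between origins at Day 13 (-0.35). With the GAPDH covariate they were AKR1B1 between origins at Day 13 (-0.094), and HPGD (1.89), PTGES3 (-0.31) and the second PTGS2 probe set (0.46) between origins at Day 7. PTGES3 between origins at Day 7 also turned with quantile normalization (-0.052), median centring (-0.088) and ribosomal centring (-0.22). AKR1B1 at Day 13 turned without Day 13 in vitro replicates 1 and 2 (-0.21), and the second PTGS2 probe set at Day 13 with array weights (-0.10) and without Day 13 in vivo replicate 1 (-0.22; range with one array left out -0.22 to 2.45). PTGES, near background, turned for the day effect in vivo with ribosomal centring (-0.20), without Day 13 in vivo replicate 2 (-0.073; range -0.073 to 0.28) and with the GAPDH covariate (-0.13). It turned for the day effect in vitro with array weights (-0.023), without Day 7 in vitro replicate 3 (-0.017; range -0.017 to 0.030), floored (-0.0074) and with the GAPDH covariate (-0.085), and for the difference of the day effect with ribosomal centring (0.23), without Day 13 in vivo replicate 2 (0.087; range -0.26 to 0.087) and with the GAPDH covariate (0.048). The cause was not tested. HPGD between origins at Day 7 gives no value when floored at background, both groups lying there. The GAPDH covariate and the floor at background were chosen after seeing the data. Intensities near background limit what can be said of HPGD, PTGES, PTGDS and PTGS1, and of the Day 7 levels of PTGIS and, in vitro, of PLA2G12A and RXRA.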
